A study of Saccharomyces cerevisiae with 56 samples.

Results

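The items described here are the 114 single amino acid substitutions at the 6 residues from N326 to E331, which form strand 2 of PDZ3, the third PDZ domain in PSD-95, a scaffold protein of the postsynaptic side of excitatory synapses. The rule that chose them used residue positions and not the scores, though it was set with earlier results of these data known. The amino acid sequence of each entry, without its last 2 letters, was set against that of the entry marked as wild type, and variants with exactly 1 difference at these residues, not to a stop and with a standard error under 50, were kept. All 19 substitutions of each residue were found, 114 of the 1178 single missense substitutions in the 66 residues that were varied. Of the 912 possible values of these members in 8 sets, 911 were in the table and none was lost to the limit on the error. The missing one was G329C in the binding of C.

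The domain was expressed from plasmids in the laboratory yeast strain BY4742 in 4 constructs, namely alone (PDZ3), with the extension that the labels call N, with the one they call C, and with both (NC). Every construct went through abundancePCA, in which growth in methotrexate depends on how much folded domain the cell holds, and through bindingPCA, in which growth depends on the contact between the domain and a partner. This gave 8 sets of 3 input, 3 output and 1 wild-type library each, 56 libraries in all. Cultures were grown at 30 °C, and the competitions ran over 5 generations in 400 mL from a starting optical density of 0.05. Neither the residues of the extensions nor the identity of the partner were among the sources used, and the partner is called the ligand.

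PDZ domains bind the carboxyl-terminal ends of other proteins. The peptide lies in a groove between strand 2 and helix 2 and adds itself to the sheet as one more strand, with backbone hydrogen bonds to strand 2. The loop just before strand 2 holds the terminal carboxylate. Side chains of strand 2 alternate in direction, so that some face the core of the domain and the hydrophobic pocket for the last peptide residue while their neighbours face outward. A substitution in this strand can lower the amount of folded domain, its binding, or both. The binding score also depends on how much folded domain is present, so the paired assays do not fully separate these.

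The strand is shown as the deposited amino acid sequences give it, first as wild type and then for members that recur below. The changed residue is in capitals in a variant, and the wild type is in capitals throughout.
wild type: NIVGGE
N326V: Vivgge
N326T: Tivgge
I327T: nTvgge
I327V: nVvgge
V328P: niPgge
V328D: niDgge
G329A: nivAge
G329S: nivSge
G330W: nivgWe
G330P: nivgPe
G330T: nivgTe
E331D: nivggD
E331K: nivggK

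The table gives each variant a score that the authors call fitness, with the wild type at 0, and 1 standard error merged from the cultures. The base of the logarithm behind it is not stated. The median single nonsense variant, which carries an early stop, scored -1.17, -0.901, -1.23 and -1.07 in the abundance of PDZ3, N, C and NC. The corresponding scores in binding were -1.52, -1.48, -1.10 and -0.891. Because these floors differ, scores were divided by the size of that median, so that on the scaled score the wild type is 0 and the median nonsense variant is -1. All values below are scaled unless said otherwise, and the error after ± is a standard error made of the authors' error of the variant, that of the wild type and that of the scale. For the mean of a residue it does not include the spread among its substitutions. The nonsense variants of the 6 residues lay between -0.637 (N326 in N) and -1.28 (E331 in N) in abundance and between -0.912 (V328 in C) and -1.09 (E331 in C) in binding.

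The precision differed between sets. The median unscaled error of the members was 0.0164, 0.00997, 0.0199 and 0.0136 in the abundance of PDZ3, N, C and NC, and 0.0483, 0.0316, 0.0109 and 0.00951 in binding. The binding of PDZ3 was the least precise, and its wild type alone carried an error of 0.0379. Of the synonymous variants, which leave the protein unchanged, 30.1%, 16.7%, 6.64% and 5.88% passed the test described next in abundance and 3.85%, 5.58%, 16.5% and 10.2% in binding. Their weighted mean lay above the wild type in all 8 sets, so that counts of members above the wild type are less certain than counts below it.

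Most members lowered binding, while a smaller share lowered abundance. Each score was set against 0, the place of the wild type, by a two-sided normal test over the authors' errors. Benjamini-Hochberg adjustment ran over all single missense substitutions of the set, with a threshold of 0.05. The score of the wild type's own entry was not subtracted. In the binding of C that unscaled score was 0.0114 with an error of 0.00392, so calls above the wild type there are less certain. In the abundance of PDZ3, 69 of 114 members fell below the wild type and 9 rose above it, where the test called 74.3% of all substitutions below and 7.33% above. In N these were 63 and 15 members, against 68.3% and 10.1% of all. In C 62 members lay below and 1 above, against 51.9% and 6.04%. In NC 44 lay below and 2 above, against 39.8% and 8.57%. The share of members with lower abundance was thus under that of the block in PDZ3 and N, and near it in C and NC.

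In binding, 104 of 114 members of PDZ3 lay below the wild type and 3 above, where 74.1% of all substitutions were called below and 3.15% above. The counts were 98 and 5 in N, against 66.9% and 6.66%. They were 101 and 5 of 113 in C, against 61.7% and 14%. They were 101 and 5 of 114 in NC, against 55.9% and 12.6%. Of the 113 members measured in all 8 sets, 95 lay below the wild type in the binding of all 4 constructs and 38 did so in abundance. The median member scored -0.713, -0.583, -0.583 and -0.413 in the binding of PDZ3, N, C and NC, while the median of all substitutions was -0.377, -0.192, -0.0670 and -0.0398.

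The groove and core regions around the strand give a scale for this count. Binding below -0.5 was seen for 57.9% of the members in PDZ3 and 43.0% in NC. In the loop that holds the carboxylate the shares were 50.4% and 19.2%, in strand 3 they were 46.6% and 15.0%, and in helix 2, the other wall of the groove, 47.3% and 17.3%. Over the whole block they were 43.5% in PDZ3 and 12.7% in NC. Abundance below -0.5 was seen for 16.7% of the members in PDZ3, the same share as in helix 2, and for 53.0% of the substitutions in the carboxylate loop. These shares are descriptions and were not tested against each other.

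Binding was lower than abundance for most members in every construct. The difference between scaled binding and scaled abundance was tested for the substitutions measured in all 8 sets. In PDZ3, 79 of 113 members had lower binding than abundance and 11 had higher, where the test called 31.7% of all substitutions lower and 16.9% higher. In N 85 were lower and 10 higher, against 37.7% and 24.2%. In C 88 were lower and 7 higher, against 35.1% and 26%. In NC 94 were lower and 6 higher, against 41.3% and 18.9%. The median difference of the members lay between -0.345 in PDZ3 and -0.363 in NC, and that of all substitutions between -0.0206 and -0.00621 across the 4 constructs.

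In all 4 constructs at once, 74 of the 113 members had lower binding than abundance. They were unevenly spread over the strand, with 17 of 18 at G329 and 18 of 19 at G330, 14 of 19 at V328, 11 at I327, 8 at E331 and 6 at N326. A member whose abundance is near the nonsense level has little room for a lower binding, so these counts do not rank the residues. At I327 the changes to charged residues had a mean abundance of -1.09 in PDZ3 and -0.217 in NC. There 11 of 19 members were called lower in PDZ3 and 19 in NC. Across members, abundance and binding of the same construct were correlated with a Pearson r of 0.406 (PDZ3), 0.455 (N), 0.427 (C) and 0.368 (NC). Across all substitutions of the block it was 0.746, 0.726, 0.655 and 0.551. The points of 1 construct share a wild type and a scale, and members of 1 residue share a site, so the coefficients are given as descriptions.

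The extensions raised many members relative to the domain alone, at shares near or below those of the whole block. The share called lower was above that of the block in C and NC in both assays. In this comparison the scaled score in N, C or NC was set against that in PDZ3 for the substitutions measured in all 4 constructs, and all 3 comparisons share the values of PDZ3. In abundance, 54 of 114 members were higher and 4 lower in N, where 50.3% of all substitutions were called higher and 3.9% lower. In C 50 were higher and 15 lower, against 59.7% and 4.61%. In NC 64 were higher and 13 lower, against 68.8% and 4.17%. The lower members were 13.2% in C and 11.4% in NC, and with errors multiplied by 2 their number fell to 2 in each. The median rise of the members was 0.0504, 0.0418 and 0.0726 in N, C and NC, and that of all substitutions 0.0794, 0.128 and 0.172. In the abundance of PDZ3 the median member lay nearer the wild type, at -0.0775 against -0.212 over all substitutions. Whether this bears on the smaller median rise was not tested.

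In binding, 30 of 113 members were higher in N and none was lower, where 35.4% of all substitutions were called higher and 1.06% lower. In C 40 were higher and 13 lower, against 56.7% and 3.43%. In NC 60 were higher and 6 lower, against 64.3% and 2.99%. The median difference of the members was 0.0744, 0.0472 and 0.135, against 0.0742, 0.159 and 0.209 over all substitutions. With errors multiplied by 2 the count of higher members in N fell to 2, that in C to 22 and that in NC to 39. The lower members then numbered 5 in C and 0 in NC. The count in C also rests on the scale, with 84 higher and 6 lower on the unscaled score and 26 higher and 50 lower as a difference of growth rate.

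N326 opens the strand beside the carboxylate loop. The mean over its 19 substitutions was -0.209 ± 0.00935, -0.135 ± 0.00676, -0.0865 ± 0.00529 and -0.0403 ± 0.00497 in the abundance of PDZ3, N, C and NC. The corresponding means of binding were -0.226 ± 0.0260, -0.148 ± 0.0138, -0.138 ± 0.00438 and -0.0951 ± 0.00504. The means of the assays lay close to each other, yet single substitutions moved in opposite directions. In PDZ3 binding was higher than abundance for 9 members of this residue and lower for 7.

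Valine, isoleucine and tryptophan at N326 lowered abundance in PDZ3 more than binding. N326V had an abundance of -0.401 ± 0.0194 (PDZ3), -0.193 ± 0.0137 (N), -0.0773 ± 0.0141 (C) and -0.0449 ± 0.0134 (NC), all below the wild type. Its binding was 0.102 ± 0.0380, 0.183 ± 0.0254, 0.0835 ± 0.00787 and 0.0591 ± 0.00841, all above the wild type. In PDZ3 that call was lost with errors multiplied by 2 (adjusted p of 0.250) and with centring on the synonymous variants (0.0591). The difference in PDZ3 was 0.503 ± 0.0426 and was the largest rise from abundance to binding in the strand. N326I followed, with an abundance of -0.609 and a binding of -0.111 in PDZ3, a difference of 0.497 ± 0.0514. Its binding was above the wild type in the other 3 constructs, at 0.0856, 0.0475 and 0.0453. Those in N and NC lost their calls with errors multiplied by 2 (adjusted p of 0.222 and 0.133). N326W had an abundance of -0.399 in PDZ3 and a binding of -0.176, and with an extension its binding did not pass the test, at -0.00324, -0.00926 and 0.0143 for N, C and NC.

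Small and acidic or amide residues behaved differently at this site. N326T bound above the wild type at 0.171 ± 0.0381 (PDZ3), 0.168 ± 0.0261 (N), 0.0643 ± 0.00865 (C) and 0.0478 ± 0.00949 (NC), and its abundance was -0.0399 in PDZ3, the only construct where that passed the test. N326S bound at 0.104 and 0.0723 in PDZ3 and N, both above the wild type, and at 0.0138 in C, which centring on the synonymous variants turned to -0.0252. Both calls were lost with errors multiplied by 2 (adjusted p of 0.238 and 0.180), and that in PDZ3 with the centring as well (0.0516). N326D, the change of the amide to an acid, had an abundance of 0.0342 in PDZ3 and a binding of -0.222 ± 0.0437, and it remained below the wild type in the binding of N (-0.295), C (-0.196) and NC (-0.121). N326Q, which keeps the amide and adds a carbon, scored 0.0157 in the abundance of PDZ3 and -0.428, -0.290, -0.223 and -0.156 in binding. N326E, chosen after its values were seen, had an abundance of -0.00624 in PDZ3 and lost more binding than any other change of this residue but proline, with -0.668, -0.516, -0.661 and -0.518.

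Proline was the harshest change at N326 in both assays, and its abundance was near the nonsense level in all constructs but NC. The abundance of N326P was -1.10 (PDZ3), -0.938 (N), -0.888 (C) and -0.212 ± 0.0172 (NC). Its binding was -0.908, -1.01, -0.973 and -0.718. N326A, which leaves only a methyl group, had an abundance of -0.120 in PDZ3 and a binding of -0.0204 ± 0.0388, which did not pass the test. N326K had the second highest abundance of the members in PDZ3, at 0.182 ± 0.0405, but it fell by 0.133, 0.162 and 0.208 in N, C and NC. The falls in N and C lost their calls with errors multiplied by 2 (adjusted p of 0.264 and 0.141).

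I327 was the residue of the strand at which substitution cost most abundance. Its mean abundance was -0.556 ± 0.0212 (PDZ3), -0.463 ± 0.0179 (N), -0.370 ± 0.00624 (C) and -0.0727 ± 0.00320 (NC). Its mean binding was -0.880 ± 0.0266, -0.863 ± 0.0158, -0.815 ± 0.00829 and -0.771 ± 0.00795. With both extensions the mean abundance was therefore nearer the wild type than in PDZ3, though 9 of 19 members were still called below it. Mean binding stayed low in NC, where 14 of 19 members lay below -0.5 and the highest, I327F, was at -0.150. The mean rise of abundance in NC over PDZ3 was 0.483 ± 0.0214, and all 19 members rose. The mean rise of binding was 0.109 ± 0.0277, and 8 of 19 members rose and 1 fell.

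Charged residues, glycine, proline and the amides at I327 gave the lowest abundance in PDZ3, and lysine was the lowest of all. I327K had an abundance of -1.17 ± 0.0457 (PDZ3), -1.13 (N), -0.976 (C) and -0.207 ± 0.00864 (NC), and a binding of -0.958, -1.04, -1.01 and -1.003. I327D went from -1.04 in PDZ3 to -0.280 in NC in abundance, with a binding of -0.969 in PDZ3 and -0.993 in NC. I327Q had an abundance of -1.04, -0.676, -0.358 and -0.0223, a rise of 1.01 ± 0.0416 in NC. Its binding was -0.961, -0.964, -0.999 and -0.829. I327P had an abundance of -1.02, -1.002, -0.850 and -0.127, and its binding did not leave the nonsense level, at -0.961, -1.03, -0.963 and -1.02. I327A had an abundance of -0.583, -0.239, -0.143 and -0.0349 and a binding of -0.987, -0.972, -0.933 and -0.813.

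A second set of changes at I327 kept most of the abundance and removed binding. I327T, which keeps the branched shape and adds a hydroxyl group, had an abundance of -0.0474 ± 0.00647 (PDZ3), -0.0233 (N), -0.00159 (C) and -0.00235 (NC). Its binding was -0.941 ± 0.0368, -0.937, -0.956 and -0.977 ± 0.0129. I327W had an abundance of -0.0173, -0.00125, -0.00708 and 0.00821 and a binding of -0.950, -0.851, -0.978 and -0.941. I327H had an abundance of -0.175 in PDZ3 and 0.00449 in NC, with a binding of -0.937 and -0.994. For I327T and I327W binding was below abundance by the test in all 4 constructs.

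Conservative changes at I327 kept part of the binding, and more of it with the extension C. I327V, a loss of 1 carbon, had an abundance of -0.0389 in PDZ3 and -0.00152 in NC. Its binding was -0.700 ± 0.0362 (PDZ3), -0.587 (N), -0.305 ± 0.00644 (C) and -0.215 ± 0.00699 (NC). The rise in C over PDZ3 was 0.395 ± 0.0367. I327L bound at -0.825, -0.657, -0.415 and -0.310, a rise of 0.410 ± 0.0368 in C and 0.515 ± 0.0369 in NC. I327F, chosen after its values were seen, was the mildest change of this residue in binding, at -0.281, -0.253, -0.194 and -0.150, and its abundance was -0.0152 in PDZ3. The mean of the residue in the binding of C rose by 0.0652 ± 0.0278, but only 5 of its 19 members rose, and the difference of growth rate had the opposite sign (-0.0173). Its call was lost with errors multiplied by 2 (adjusted p of 0.255).

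V328 tolerated substitution in abundance and lost binding by amounts that depended on the residue put in. Its mean abundance was -0.0832 ± 0.00884 (PDZ3), -0.0790 ± 0.00541 (N), -0.0802 ± 0.00657 (C) and -0.0414 ± 0.00518 (NC), and its median substitution scored -0.0113, -0.0235, -0.0265 and 0.00918. V328P stood apart with -1.10 ± 0.0513, -1.06, -1.02 and -0.859 ± 0.0315, and was the only member with an abundance below -0.5 in NC. Without proline the mean of the residue in NC was 0.00405. The binding of V328P was -0.974, -0.976, -0.963 and -1.03.

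Mean binding at V328 was -0.390 ± 0.0268 (PDZ3), -0.333 ± 0.0144 (N), -0.504 ± 0.00722 (C) and -0.395 ± 0.00675 (NC). V328I and V328M were the mildest changes. V328I bound at 0.0379 ± 0.0442 in PDZ3 and 0.0118 in N, neither of which passed the test, and at 0.0657 ± 0.0113 in C and 0.0346 ± 0.0117 in NC, above the wild type. The call in NC was lost with errors multiplied by 2 (adjusted p of 0.232) and with centring on the synonymous variants (0.163). V328M bound at 0.0958, -0.00826, -0.0199 and -0.00381, none of which passed, and its abundance was 0.194 ± 0.0216 in PDZ3 and 0.0299 in NC. V328L bound at -0.458, -0.371, -0.158 and -0.118. V328A bound at -0.233, -0.201, -0.317 and -0.272 with an abundance of 0.117, 0.0896, 0.0297 and 0.0136.

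Binding at V328 was lower with the extension C than without it on the scaled score. The mean fell by 0.114 ± 0.0278 in C, with an adjusted p of 5.93e-05, and 9 of 19 members fell and 2 rose. V328D fell most, from -0.778 ± 0.0443 in PDZ3 to -1.25 ± 0.0435 in C, a value below the median nonsense variant. Its abundance was -0.0113 ± 0.0229 in PDZ3 and -0.0701 ± 0.0277 in C. V328W fell from -0.370 to -0.670, V328Y from -0.329 to -0.611 and V328H from -0.464 to -0.743. The direction of the mean depends on the scale, since on the unscaled score it was 0.0408 with an adjusted p of 0.338, and with errors multiplied by 2 the call was lost (0.0566).

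G329 showed the widest separation of the assays. Its mean abundance was -0.149 ± 0.00742 (PDZ3), -0.0678 ± 0.00436 (N), -0.107 ± 0.00487 (C) and -0.0475 ± 0.00355 (NC). Its mean binding over the 18 substitutions measured in every construct was -0.887 ± 0.0269, -0.814 ± 0.0158, -0.906 ± 0.00991 and -0.759 ± 0.00810. The mean difference between binding and abundance was -0.732 ± 0.0279 (PDZ3), -0.742 ± 0.0164 (N), -0.789 ± 0.0110 (C) and -0.711 ± 0.00886 (NC). Of the 60 residues with at least 10 measured substitutions, only 1 had a lower value in PDZ3 and none had in the other 3 constructs.

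Even the smallest side chain removed most of the binding at G329. G329A, which adds a methyl group, had an abundance of 0.0514 ± 0.0123 (PDZ3), 0.123 ± 0.0103 (N), 0.0317 (C) and 0.00941 (NC). Its binding was -0.877 ± 0.0391, -0.888 ± 0.0250, -0.970 ± 0.0195 and -0.783 ± 0.0119. G329P, which fixes the backbone, had an abundance of 0.0144, 0.0469, -0.0167 and -0.0159, and a binding of -0.889, -0.847, -0.981 and -0.900. G329V had an abundance of 0.00942, -0.0174, -0.0516 and -0.0413, and a binding at the nonsense level in all constructs, at -0.996, -1.01, -1.14 and -1.02. G329D bound at -1.09 (PDZ3), -0.709 (N), -1.19 (C) and -0.659 (NC), with an abundance between -0.0632 and 0.0168.

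Serine was the mildest change of G329. G329S bound at -0.495 ± 0.0371 (PDZ3), -0.508 ± 0.0204 (N), -0.242 ± 0.00771 (C) and -0.180 ± 0.00720 (NC), and its abundance was 0.0328, 0.0383, -0.0189 and -0.0115. G329T bound at -0.724, -0.693, -0.632 and -0.472. At the other end, G329W had an abundance of -1.01 ± 0.0482 (PDZ3), -0.518 (N), -0.298 (C) and -0.112 ± 0.0123 (NC), with a binding of -1.02, -1.04, -0.870 and -0.636. G329F and G329Y, chosen after their values were seen, were the other changes with an abundance below -0.5 in PDZ3, at -0.810 and -0.605. G329C bound below the median nonsense variant in the 3 constructs where it was measured, at -1.28 ± 0.0744 in PDZ3, -1.23 ± 0.0729 in N and -1.62 ± 0.0790 in NC, with errors larger than those of most members.

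The changes at G329 in abundance came from few members. The mean rose by 0.0427 ± 0.00887 in C over PDZ3, but 4 members rose and 7 fell, and the median difference was -0.0342. In NC the mean rose by 0.102 ± 0.00823, with 6 members higher and 6 lower and a median of -0.00174. In binding, NC was higher than PDZ3 by 0.127 ± 0.0281 with 8 of 18 members higher, and C differed by -0.0190 ± 0.0287, which did not pass the test.

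G330 combined a loss of abundance with a loss of binding, and it was the residue of the strand that regained most binding with the extensions. All 19 substitutions lay below the wild type in the abundance of PDZ3, N and C, and 14 did in NC. The mean abundance was -0.308 ± 0.0120, -0.151 ± 0.00664, -0.103 ± 0.00366 and -0.0296 ± 0.00316. All 19 lay below the wild type in the binding of every construct, with means of -0.853 ± 0.0266, -0.721 ± 0.0151, -0.624 ± 0.00683 and -0.459 ± 0.00599. The rise of mean binding over PDZ3 was 0.133 ± 0.0306, 0.230 ± 0.0274 and 0.394 ± 0.0272 for N, C and NC, and 11, 16 and 19 of the 19 members rose. The value in N lost its call with errors multiplied by 2 (adjusted p of 0.0741). Over the 60 residues with at least 10 measured substitutions the median rise was 0.0921, 0.218 and 0.306 for N, C and NC.

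The largest single rise of abundance in NC over PDZ3 in the strand was that of G330W, though I327Q rose by a similar 1.01 ± 0.0416. G330W had an abundance of -1.09 ± 0.0444 (PDZ3), -0.663 (N), -0.346 (C) and -0.0516 ± 0.00900 (NC), a rise of 1.04 ± 0.0453. Its binding was -0.963 ± 0.0382, -0.835, -0.578 and -0.380 ± 0.00898, a rise of 0.583 ± 0.0392 in NC. G330F had an abundance of -0.670, -0.302, -0.120 and -0.0318. G330Y bound at -0.926, -0.766, -0.643 and -0.404, a rise of 0.522 ± 0.0394 in NC.

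Proline, which gave the lowest abundance at N326 and V328, was the mildest change at G330 in binding. G330P bound at -0.455 ± 0.0363 (PDZ3), -0.294 ± 0.0202 (N), -0.0664 ± 0.00617 (C) and -0.0536 ± 0.00728 (NC), with a rise of 0.389 ± 0.0369 in C. Its abundance was -0.211 ± 0.0107, -0.0843, -0.0344 and -0.00721. G330T, known for widening the range of peptides that this domain accepts, had an abundance of -0.190, -0.0973, -0.0677 and -0.0299 and a binding of -0.868 ± 0.0369, -0.665 ± 0.0216, -0.583 ± 0.00881 and -0.432 ± 0.00859. G330S bound at -0.791, -0.742, -0.592 and -0.438. G330A bound at -0.900, -0.765, -0.576 and -0.424 with an abundance of -0.0976 in PDZ3. The levels of these 3 changes were not tested against each other.

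E331, the last residue of the strand, was tolerant in abundance and lost part of its binding. The mean abundance was -0.0831 ± 0.0166 (PDZ3), -0.000477 ± 0.00835 (N), -0.0622 ± 0.0124 (C) and -0.0118 ± 0.0104 (NC), and those of N and NC did not pass the test. Centred on the synonymous variants they did, at -0.0303 (adjusted p of 0.000225) and -0.0298 (0.00380). The mean binding was -0.370 ± 0.0307, -0.275 ± 0.0171, -0.268 ± 0.00686 and -0.201 ± 0.00695. Errors were large for several members of this residue, and E331Q in the abundance of PDZ3 had -0.407 ± 0.245, which did not pass.

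The change that keeps the acid was the mildest and the change to a base among the lowest at E331. E331D bound at -0.0997 ± 0.175 in PDZ3, 0.0154 ± 0.0544 in N and -0.0390 ± 0.0286 in NC, none of which passed, and at 0.0710 ± 0.0325 in C, above the wild type. That call was lost with errors multiplied by 2 (adjusted p of 0.368), with errors widened to the synonymous spread (0.110) and with centring (0.369). E331K bound at -0.847 ± 0.0787, -0.679 ± 0.0671, -0.588 ± 0.0309 and -0.311 ± 0.0274, with an abundance between -0.0316 and 0.0230 that passed in no construct. Its rise in NC was 0.535 ± 0.0833. E331Q, which removes the charge, bound at -0.281, -0.153, -0.187 and -0.146. E331A bound at -0.524, -0.400, -0.326 and -0.213. E331P had the lowest binding of the residue, at -0.893 ± 0.0621, -0.853, -0.817 and -0.666, while its abundance was 0.0498 ± 0.0341 in PDZ3 and -0.101 ± 0.0317 in NC.

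Position means were also tested between constructs, over the 60 residues with at least 10 measured substitutions. In abundance 5 of the 6 residues rose in N over PDZ3, 4 did in C and 6 in NC, where 83.3%, 86.7% and 93.3% of the 60 changed in either direction. V328 was the exception in N (0.00420 ± 0.0104), and V328 and E331 were in C (0.00303 ± 0.0110 and 0.0209 ± 0.0207). In binding 4 residues rose in N, 4 rose and 1 fell in C, and 5 rose in NC, where 71.7%, 88.3% and 90% of the 60 changed. I327 and V328 did not pass in N (0.0170 ± 0.0309 and 0.0563 ± 0.0305), G329 did not in C, and V328 did not in NC (-0.00565 ± 0.0277). Only 1 of the 60 residues had a lower difference than V328 in the binding of C. With errors multiplied by 2 no residue passed in the binding of N, only G330 did in C, and 4 did in NC, where I327 was lost (adjusted p of 0.0544). The same setting lost E331 in the abundance of NC (0.0736).

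When NC was set against the constructs with a single extension, mean abundance rose at 5 residues over N and at all 6 over C, against 90% and 76.7% of the 60 that changed. E331 was the exception over N (-0.0114 ± 0.0133). I327 rose most in both, by 0.390 ± 0.0182 over N and 0.297 ± 0.00701 over C. Mean binding rose at 5 residues over N and fell at V328 by 0.0620 ± 0.0159, and it rose at all 6 over C, against 88.3% and 75% of the 60. G330 rose most in both, by 0.262 ± 0.0163 and 0.165 ± 0.00908. With errors multiplied by 2 only I327 and G330 kept their calls in binding over N, while all 6 did over C.

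The difference between binding and abundance of a position mean passed in PDZ3 and N at 5 residues, all lower in binding, and at all 6 in C and NC, where 56.7%, 70%, 86.7% and 83.3% of the 60 passed in either direction. N326 was the exception in PDZ3 and N, with -0.0171 ± 0.0276 and -0.0136 ± 0.0154. In C and NC its mean was -0.0512 and -0.0548 but its median 0.0122 and 0.0287. The change of this difference between PDZ3 and another construct passed at no residue of the strand in N, though I327 did on the unscaled score (-0.172, adjusted p of 0.000564) and as growth rate (4.64e-07). It passed at 2 residues in C and at 3 with both extensions, where 11.7%, 43.3% and 48.3% of the 60 passed in N, C and NC. With errors multiplied by 2 none passed in C and only I327 did in NC. The test of whether N changed the score by the same amount with and without C passed at 3 residues of the strand in abundance and at none in binding, where 60% and 51.7% of the 60 passed. The answer in binding depends on the scale, since 3 residues passed on the unscaled score (I327, V328 and G329) and 4 as growth rate (with G330). In abundance N326 and G329 also passed with centring, on the unscaled score and as growth rate.

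Grouped by the residue put in, the 6 prolines had the lowest mean in each of the 8 sets, as prolines also did over the whole block. The mean abundance of the 6 was -0.559 in PDZ3 and -0.220 in NC, against -0.694 and -0.283 for prolines over the block. Their range in PDZ3 was -1.10 to 0.0498, since G329P and E331P were near the wild type. Their mean binding was -0.847 in PDZ3 and -0.731 in NC, against -0.731 and -0.388 for prolines over the whole block. The 23 changes to charged residues had a mean binding of -0.670 in PDZ3 and -0.533 in NC, and the 46 to aliphatic or aromatic residues one of -0.568 and -0.372. In abundance the 35 polar changes were the mildest class in PDZ3, with a mean of -0.139, and the aliphatic and aromatic ones had -0.266. Polar changes were also the mildest class over the whole block in that set, at -0.326. The classes were not tested.

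The residue just before the strand, F325, had a mean abundance of -0.834 in PDZ3 and -0.417 in NC and a mean binding of -0.803 and -0.432 over its 19 substitutions. Both readouts were low at this site. The residue just after the strand, D332, had no measured substitution in PDZ3 and 1 in C, in abundance, and with both extensions its mean was -0.0670 in abundance over 17 substitutions and -0.0689 in binding over 19.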

How the data were processed

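Yeast growth competitions were sequenced as amplicons in 56 libraries, and cutadapt and FastQC are the tools in the submitters' processing notes, with no version. Per the file headers, the deposited table of 384696 entries holds fitness, a score relative to the wild type, its standard error sigma, and a growth rate with its own error, all merged by the authors over 3 cultures per set. The growth rate was a straight line of the score. Depth is unknown, since no counts were among the values used. No counting interval can be stated, and the tests rest on the authors' error.

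The 8 wild-type entries marked as such hold a placeholder error of the score, and their scores were not used as measurements. Their growth rates, with the errors of these, served as the wild type where results are given as growth rate. The error of the wild-type score came from a separate unmarked entry, and for NC from the error of the growth rate in its marked entry. Scaling used the median nonsense score, with the standard error of that median from the median absolute deviation. Normal tests (numpy 2.4.6, pandas 2.3.3, scipy 1.17.1, python 3.11.15) were two-sided, with Benjamini-Hochberg adjustment over all single missense substitutions or over 60 positions. Tests within a set rest on a common wild type and a common scale and are therefore dependent. The tests were checked on simulated scores drawn with the authors' errors. That checks the calculation and cannot show whether those errors are large enough.

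The members and lists were chosen with earlier results of these data known. Named were all position means, the 3 lowest and 3 highest members of each set, the 4 largest rises and 4 largest falls of each contrast among those past the threshold, changes to proline and alanine, conservative changes, G330T, G330S, G329S and G329A, and others only where said. Alternatives changed the errors, the centre, the scale and the variants included.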

Additional observations from a re-analysis of the deposited data

Results flagged for a closer look

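At 8 residue and contrast pairs the effect of an extension differed between conditions by a test of the difference itself, the two-sided normal test adjusted over 60 residues, with 19 substitutions each. The errors leave out the spread among substitutions, so these p-values do not show that the substitutions of a residue behave alike. No cause was tested.

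In abundance, N raised the mean of I327 by 0.204 ± 0.0286 more with C present than without it (adjusted p of 1.52e-11). The median over its substitutions was -0.0223, and single members lay between -0.235 and 0.755. At V328 the same difference was 0.0346 ± 0.0133 (adjusted p of 0.0172). That call was lost with errors multiplied by 2 (0.261), with errors widened to the synonymous spread (0.0935), with centring on the synonymous variants (0.0570) and on the unscaled score (0.0605). At G330 it was -0.0833 ± 0.0146 (adjusted p of 6.26e-08), so that N added less to the abundance of G330 variants when C was present. The mean abundance of G330 was -0.103 in C and -0.308 in PDZ3, which left less room below the wild type with C. Whether this sets the difference was not tested.

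The difference between binding and abundance also moved with the extensions. From PDZ3 to C it changed by -0.121 ± 0.0355 at I327 and by -0.117 ± 0.0299 at V328, and both calls were lost with errors multiplied by 2 (adjusted p of 0.156 and 0.183). From PDZ3 to NC it changed by -0.375 ± 0.0350 at I327, by 0.116 ± 0.0299 at G330 and by 0.0971 ± 0.0371 at E331. With errors multiplied by 2 the calls at G330 (0.107) and E331 (0.402) were lost, and that at E331 also with errors widened to the synonymous spread (0.0529) and without proline (0.0633). On the scaled score the mean rise of abundance was above that of binding at I327, and that of binding above that of abundance at G330 and E331. In PDZ3 the mean abundance was -0.308 at G330 and -0.0831 at E331, and the mean binding was -0.853 and -0.370. Abundance in PDZ3 thus lay nearer the wild type than binding at these residues. Whether this bears on the difference was not tested. On the unscaled score the values at I327 and V328 had the opposite sign, as given below.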

How the results depend on the processing

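No paired analysis was possible because the table merges the cultures into 1 value, and for the same reason no culture could be left out. All values given here are from alternatives listed in advance. The counts of members with lower binding than abundance kept their size within 1.5 times under every alternative, as did those below the wild type in binding and, except with errors multiplied by 2 (41 in the abundance of C and 19 in that of NC), in abundance. The counts of members with higher abundance than in PDZ3 also did. For binding above that in PDZ3, errors multiplied by 2 left 2 members in N, 22 in C and, with both extensions, 39. The unscaled score gave 84 in C and 95 in NC, and the growth rate gave 26 in C. Small counts in the opposite direction moved more often, and centring on the synonymous variants left 4 of 9 members above the wild type in the abundance of PDZ3 and 4 of 15 in N.

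Signs turned mainly with the scale, whose floors differ between sets, and the cause was not tested otherwise. On the unscaled score, binding in C minus PDZ3 was 0.273 for G329A, 0.279 for G329P, 0.407 for I327P, 0.316 for N326P, 0.0408 for the mean of V328 and 0.358 for that of G329. Binding in NC minus PDZ3 was 0.554 for G329P, 0.558 for I327P, 0.378 for V328D, 0.570 for V328P, 0.0941 for V328W, 0.0968 for V328Y and 0.242 for the mean of V328, which was 0.143 in NC minus N. Unscaled binding minus abundance was -0.278 for I327P, -0.102 for N326P and -0.204 for V328P in PDZ3, -0.491 for V328P in N, 0.0241 for N326P in C and 0.00726 for V328P in NC. The change of that difference was 0.253 at I327, 0.0422 at V328 and 0.321 at G329 in C, and 0.0833 at I327 and 0.189 at V328 in NC.

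As growth rate, binding in C minus PDZ3 was -0.0226 for I327A, -0.0302 for V328P and -0.0173 for the mean of I327. Binding minus abundance of V328P was -0.0356 in N and -0.0416 in C, and the change of the difference at G330 in C was -0.0132. With the median over substitutions, abundance was -0.0342 at G329 in C minus PDZ3, -8.71e-05 at V328 and -0.00174 at G329 in NC minus PDZ3, and -0.0238 at G329 in NC minus N. The effect of N with and without C then differed by -0.0223 at I327. Median binding in C minus PDZ3 was -0.00247 at I327, binding minus abundance at N326 was 0.0122 in C and 0.0287 in NC, and the median abundance of V328 in NC was 0.00918, against 0.00405 for its mean without proline. Centred on the synonymous variants, N326S had -0.0252 in the binding of C. Among position means, errors multiplied by 2 ended most calls in the binding of N and C against PDZ3. In binding against PDZ3, G329 in N also lost its call without high-error substitutions (adjusted p of 0.112), as growth rate (0.213) and with the scale from nonsense variants from G345 on (0.0689). That scale ended the calls of I327 in C (0.0709) and in NC over C (0.0994). As growth rate N326 and E331 lost theirs in C (0.0830 and 0.303). In abundance, NC over C lost N326 without proline (0.158) and E331 with errors multiplied by 2 (0.174), which also ended G329 in NC over N (0.0595). On the unscaled score V328 gained a call in N over PDZ3 in abundance (0.0145) and binding (0.0387). Depth is unknown, and no limit from it can be stated.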
